A study of Oryza sativa with 24 samples.

Results

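The comparison described here sets rice (Oryza sativa) seedlings after 48 h in PEG against seedlings after 24 h in PEG. Its members were chosen by sample title: 4 arrays at 48 h and 4 arrays at 24 h, 8 of the 24 arrays of the series. Small RNA of each time came in 2 libraries, with 2 hybridizations of every library, 1 per array. At both times the seedlings stood in 15% PEG6000 in Yoshida's solution, with days of 13 h at 26 °C and nights of 11 h at 22 °C, so the groups differed by a day of treatment and were sampled at the same clock time. The seedlings were also a day older at 48 h, and seedlings kept without PEG were not analysed here, so time in PEG and age cannot be told apart. The other times were 0, 0.5, 2 and 6 h, of which 0 h is the state before treatment. The labels give neither the cultivar nor the tissue taken, and do not say whether the libraries of a time came from separate plants, so the spread between libraries may be partly technical.

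PEG6000 is a polymer too large to enter the root cell wall freely. It lowers the water potential of the solution, so that the plant meets osmotic stress much as it does in dry soil. Plant microRNAs are short RNAs cut from hairpin precursors by a Dicer-like enzyme. Loaded into an Argonaute protein, they pair with messenger RNAs and direct their cleavage or block their translation, and many of their targets are transcription factors that act in growth and in stress responses. The level of a mature microRNA reflects both its making and its turnover. On these arrays PCR-amplified, Cy5-labelled small RNA was bound to spotted probes and read in 1 colour.

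Each array held 896 spots in sets of 4 neighbouring spots, and all sets were compared. The files name a set only by a code and do not pair codes with microRNA names, so neither a function nor a sequence can be given for a set, and tissue markers cannot be checked. For that reason only the 2 sets furthest toward higher levels and the 2 furthest toward lower levels by p are named from this step, with 3 more for the whole course. A level is the mean of the 4 spots on the scale log2(intensity + 50) after quantile normalization over all arrays. The replicate was the library (mean of its 2 hybridizations, n = 2 per time), and differences are 48 h minus 24 h.

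Median spot intensity was 164 to 566 on the 48 h arrays and 194 to 407 on the 24 h arrays. Between 11 and 14 spots per array at 48 h, and 6 to 13 at 24 h, read above 60000, near the scanner's ceiling. Hybridizations of 1 library correlated over sets with r between 0.984 and 0.994, and the median SD between them was 0.12 on the log2 scale. Correlation over sets was 0.989 between the libraries of 48 h and 0.984 between those of 24 h. It was 0.996 between the 48 h and the 24 h library numbered 1 and 0.993 between those numbered 2, so a library was closer to its namesake of the other day than to its partner of the same day. Libraries were paired by number, a choice set with the comparison. Without any scaling the median set was 0.28 higher at 48 h on the log2 scale, and quantile normalization takes this common shift out.

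Between 24 h and 48 h in PEG the small RNA profile moved little. The median difference over the sets was 0.01 on the log2 scale, and single sets lay between -1.05 and 0.68. For 186 sets (83.0%) the difference was under 0.25 in size. Only 8 sets differed by more than 0.5, of which 4 were higher and 4 lower at 48 h, and 1 differed by more than 1. With library number as the block in limma, none of the sets (0) passed a Benjamini-Hochberg adjusted p under 0.05 (percent called 0), with 0.120 the smallest adjusted p. An unadjusted p under 0.05 was reached by 26 sets (11.6% of those tested), 11 higher and 15 lower at 48 h. Without the block limma called 0 sets and 6 (2.68%) had an unadjusted p under 0.05. The 0 depended on the processing: over 26 other settings the count lay between 0 and 14, and it was above 0 in 6 of them.

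A lack of calls does not show that levels were equal, so the interval of each difference was taken. The 95% confidence interval reached a median of 0.32 on either side of the difference on the log2 scale with the block and 0.42 without it. For 220 sets the interval lay between -1 and 1, and for 143 sets it lay between -0.5 and 0.5. Without the block the first of these counts was 177. A difference of 1 is close to a 2-fold difference in intensity only for bright sets. On dim sets the offset compresses differences, so there the same bounds allow more than a 2-fold difference. The intervals are those of single sets and are not adjusted for their number. Of the 4 sets whose interval reached beyond -1 or 1, 3 are named below (R63, R111 and R48).

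**Figure D1:**
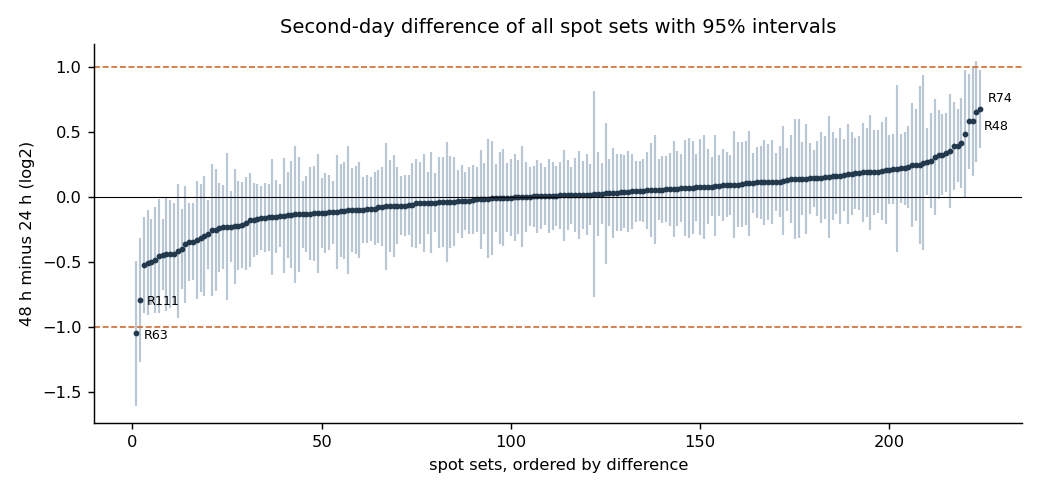
Difference between 48 h and 24 h in PEG (log2, points) with its 95% confidence interval (bars) for all spot sets, ordered by size; dashed lines mark 1 and -1. The intervals of 220 sets stay between the dashed lines, and R63 and R111 lie lowest.

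The 2 sets with the smallest p toward higher levels were R74 and R48. All 4 sets named from the step were chosen by p on these same arrays, which favours a separation of the days. R74 had log2 levels of 10.96 and 10.73 (library 1) and 10.97 and 10.71 (library 2) on the 48 h arrays, against 10.15 and 10.21 (library 1) and 10.18 and 10.11 (library 2) on the 24 h arrays. All 4 arrays of 48 h thus stood above all 4 of 24 h, and the libraries of a day lay close together. The unscaled intensities of R74 were 1527 to 2715 at 48 h, against 1051 to 1445 at 24 h, again without overlap. Its mean was 10.84 ± 0.0042 at 48 h and 10.16 ± 0.023 at 24 h (SD, n = 2 each). These SDs rest on 2 values each and lie below the median SD of 0.12 between hybridizations, while at 0.5 h the SD of R74 was 0.32. The difference was 0.68 ± 0.13 (SE), a fold of 1.60 with a 95% interval of 1.30 to 1.97, and it missed the threshold (limma with the block, adjusted p = 0.120, and 0.300 without the block). It was 0.67 in library 1 and 0.69 in library 2.

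Set R48 is among the brightest on the array. It had log2 levels of 15.999 and 15.16 (library 1) and 15.997 and 15.58 (library 2) at 48 h, against 15.01 and 14.41 (library 1) and 15.55 and 15.13 (library 2) at 24 h. Single arrays of the 2 days overlapped, while within each library the 48 h level was higher, by 0.87 in library 1 and by 0.44 in library 2. At 48 h 9 of its 16 spots read above 60000, against 0 of 16 at 24 h, so on 3 of the 4 arrays its 48 h level is limited by the ceiling. The measured difference of 0.66 ± 0.17 (SE), a fold of 1.58, missed the threshold (limma with the block, adjusted p = 0.207, and 0.996 without it).

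R63 and R111 were the 2 sets with the smallest p toward lower levels. R63 had log2 levels of 11.94 and 12.32 (library 1) and 12.63 and 12.55 (library 2) at 48 h, against 12.82 and 13.29 (library 1) and 13.92 and 13.60 (library 2) at 24 h. The highest 48 h array of R63 lay below the lowest 24 h array on this scale. Its unscaled intensities overlapped, at 5437 to 8839 on the 48 h arrays, against 7189 to 15472 on the 24 h arrays, and without normalization the R63 difference was -0.64 (limma with the block, adjusted p = 0.312). Its mean was 12.36 ± 0.33 at 48 h and 13.41 ± 0.50 at 24 h (SD, n = 2 each), a difference of -1.05 ± 0.25 (SE), which makes the 48 h level 0.484 of the 24 h level (95% interval 0.329 to 0.711). No other set differed by as much in the step, and it missed the threshold too (limma with the block, adjusted p = 0.207, and 0.602 without it).

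R111 had log2 levels of 9.97 and 10.41 (library 1) and 10.74 and 10.99 (library 2) at 48 h, against 10.65 and 10.95 (library 1) and 11.90 and 11.76 (library 2) at 24 h. Here the libraries differed as much as the days did: library 2 of 48 h, at 10.86, was above library 1 of 24 h, at 10.80. Within its own number each 48 h library was lower, by -0.61 in library 1 and by -0.97 in library 2, and the fitted difference was -0.79 ± 0.21 (SE; limma with the block, adjusted p = 0.207, and 0.996 without it). Leaving out library 2 of 24 h brought it to -0.44, and leaving out library 1 of 24 h brought it to -1.14. For R63 the difference was then -0.71 and -1.38 in the same order.

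**Figure D2:**
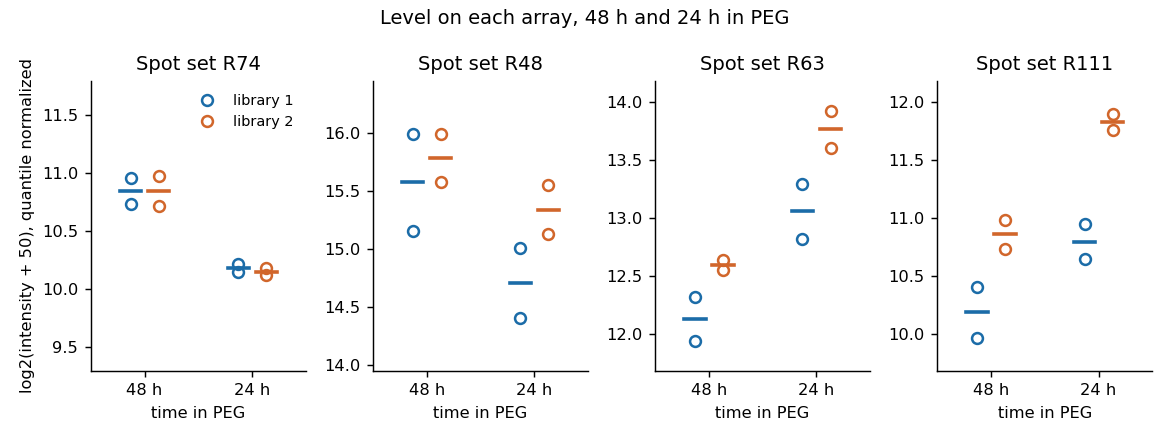
Log2 level of R74, R48, R63 and R111 on each array (open circles; the bar is the mean of a library's 2 hybridizations) at 48 h and 24 h in PEG, by library. All panels span the same range of log2 units; R74 and R63 show no overlap between days, and R111 overlaps across libraries.

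Over the whole treatment the 4 sets followed different courses. The 4 sets were named by their 48 h levels against those of 24 h. Their tests of 48 h against 0 h reuse those 48 h levels, so they carry that choice and are a description. R74 had a mean of 10.21 at 0 h, reached 10.68 at 6 h, stood at 10.16 at 24 h and at 10.84 at 48 h, so the low level of 24 h was close to that of 0 h. Its 48 h level was 0.63 ± 0.13 (SE) above 0 h, which passed in limma with the block (adjusted p = 0.0113) and without it (0.0437). R63 had its highest mean, 13.96, at 6 h and its lowest, 12.36, at 48 h, and its 48 h level was not called against 0 h (a difference of -0.41 ± 0.25 (SE); limma with the block, adjusted p = 0.353). The mean of R111 was 11.61 at 0 h, 10.69 at 2 h, 11.31 at 24 h and 10.53 at 48 h. Against 0 h its 48 h level was lower by -1.09 ± 0.21 (SE; limma, adjusted p = 0.00874 with the block and 0.152 without it). R48 lay between 14.48 (0.5 h) and 15.68 (48 h) over the 6 times, and its 48 h level was 0.80 ± 0.17 (SE) above 0 h (limma, adjusted p = 0.0113 with the block and 0.292 without it).

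The other 22 sets with an unadjusted p under 0.05 differed by 0.27 to 0.59 where they were higher at 48 h (9 sets) and by -0.52 to -0.29 where they were lower (13 sets). Their adjusted p in limma with the block ran from 0.207 to 0.424. All 26 sets moved the same way in both library pairs, which the blocked test itself favours. In 20 of the 26 both libraries of 48 h lay on 1 side of both libraries of 24 h. The 26 were chosen by p on these same libraries, which favours such a separation. Over all sets the separation was seen in 69 (35 higher and 34 lower at 48 h) and was absent in the other 155. With 2 libraries a day such a separation is common by chance alone, so the 69 do not show a difference between the days. Limma with the block called 0 of all sets (percent called 0).

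The 48 h minus 24 h difference of a set was then compared between the library pairs, which share no library. Over all sets the differences in library 1 and library 2 correlated with Pearson r = 0.366 and Spearman rho = 0.256, a description across sets that lie on the same arrays. They had the same sign in 125 sets (55.8%). A difference above 0.5 in size in both pairs was seen in 4 sets with the same sign (2 higher and 2 lower) and in 0 sets with opposite signs. The correlation between pairs was 0.515 over the 75 brightest sets, 0.186 over the 74 of middle brightness and -0.09 over the 75 dimmest, so what the pairs shared lay in the brighter sets. SDs of the fitted differences over these groups were 0.31, 0.18 and 0.10. The brightest group held 20 of the 26 sets with an unadjusted p under 0.05 and the dimmest 0. On dim sets the offset of 50 compresses differences, so their small spread is no measure of a steady level.

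**Figure D3:**
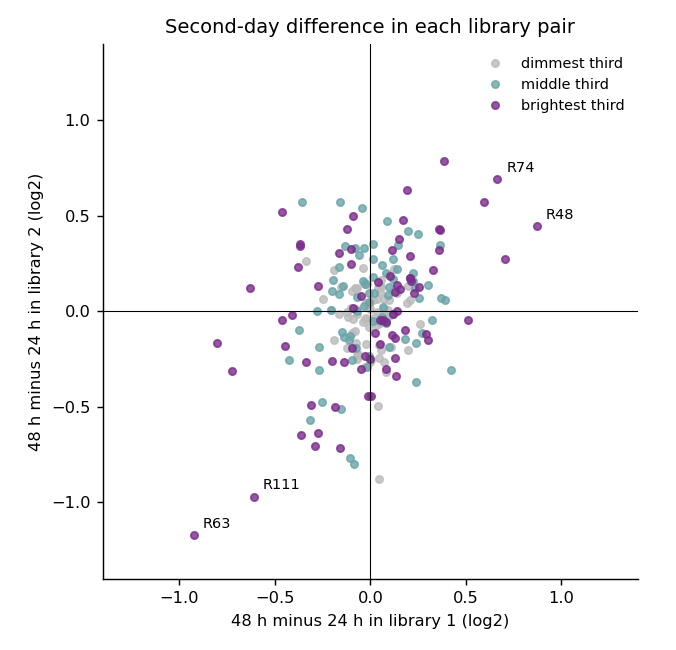
Difference between 48 h and 24 h in PEG in library 2 (vertical, log2) against that in library 1 (horizontal, log2), 1 point per spot set, coloured by brightness group (dimmest 75, middle 74 and brightest 75 sets). The labelled sets have the highest (R74, R48) and lowest (R63, R111) mean of both pairs, and most dim sets lie near 0.

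Position on the array moved with these differences. The spots lie in 4 sub-grids of 56 sets. In library 2 the median difference was -0.17 in the sub-grid of array row 1 and column 1 and 0.18 in that of row 2 and column 2, against -0.01 and 0.01 in library 1. The first of these sub-grids holds R63 and R111 and 8 of the 15 sets that were lower at an unadjusted p under 0.05, and the other holds R74 and 7 of the 11 that were higher. The sub-grid medians were then set equal on all arrays, a step chosen after seeing the data. With this R74 differed by 0.66, R48 by 0.53, R63 by -0.89 and R111 by -0.63. Limma with the block then called 0 sets (23 at an unadjusted p under 0.05). Its adjusted p was 0.0710 for R74 and R63, 0.113 for R111 and 0.239 for R48.

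Day 2 of treatment was set against day 1, that is, 48 h minus 24 h against 24 h minus 0 h, steps of equal length that share the 24 h libraries. On day 2 limma with the block called 0 sets and on day 1 it called 23 (percent called 10.3; 15 rose and 8 fell). Without the block the counts were 0 on day 2 and 8 on day 1 (percent called 3.57). The SD over sets of the log2 difference was 0.22 on day 2 and 0.54 on day 1. In a test of the difference itself, limma found 10 sets (percent called 4.46) whose change on day 2 differed from that on day 1, of which 9 had a lower and 1 a higher value on day 2. All 10 were among the 23 called on day 1. The test contains the day 1 change with its sign reversed, which favours this overlap. The changes of the 10 sets were -0.50 to 0.33 on day 2 and 1.06 to 4.26 in size on day 1. Without the block 3 sets were found (percent called 1.34), and 16 had an unadjusted p under 0.05.

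The next 3 sets were chosen with their changes against 0 h known, so their tests of day 2 against day 1 carry that choice and are a description. R220, the set that had risen furthest by 24 h, was at 13.17 and 12.22 in the libraries of 48 h, against 12.88 and 12.34 in those of 24 h. The days overlapped, and the difference of 0.09 ± 0.17 (SE) had a 95% interval of -0.30 to 0.48 on the log2 scale with the block and of -0.66 to 0.84 without it. Against 0 h the change was 4.35 ± 0.17 (SE) at 48 h and 4.26 ± 0.17 (SE) at 24 h. Day 2 minus day 1 was -4.18 ± 0.30 (SE; limma, adjusted p = 2.31e-05 with the block and 0.00786 without it).

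R7 was at 10.36 and 10.17 in the libraries of 48 h, against 10.65 and 10.88 in those of 24 h. Both libraries of 48 h were lower, by a fitted -0.50 ± 0.15 (SE; 95% interval -0.83 to -0.17), which missed the threshold (limma with the block, adjusted p = 0.243). It stayed above its 0 h level, by 1.27 ± 0.15 (SE) at 48 h and by 1.77 ± 0.15 (SE) at 24 h. R224, which had fallen furthest by 24 h, was at 8.77 and 9.16 at 48 h, against 8.65 and 9.17 at 24 h, a difference of 0.05 ± 0.16 (SE; 95% interval -0.31 to 0.42 with the block and -1.03 to 1.13 without it). Its change against 0 h was -2.71 ± 0.16 (SE) at 48 h and -2.76 ± 0.16 (SE) at 24 h. For R7 and R224 day 2 minus day 1 was -2.27 and 2.81 (limma with the block, adjusted p = 0.000458 and 0.000216). Without the block the adjusted p was 0.00535 for R7 and 0.235 for R224.

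**Figure D4:**
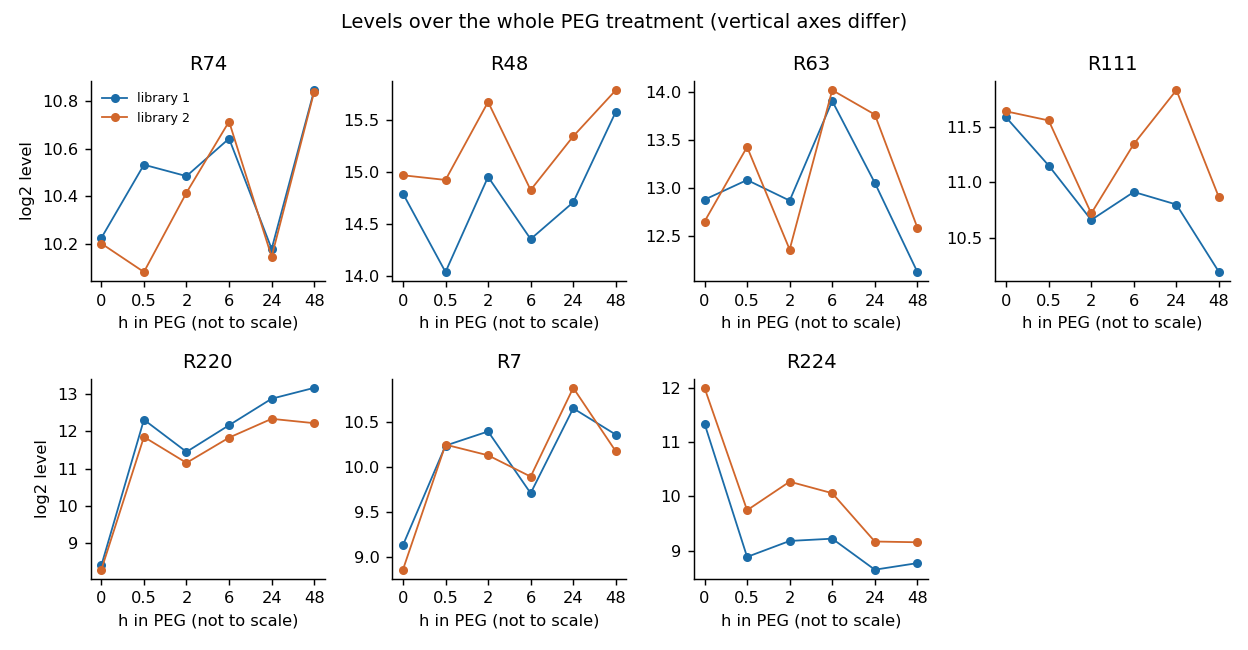
Log2 level in library 1 and library 2 at the 6 times in PEG (time axis not to scale, vertical axes differ) for the 4 sets named from the step and for R220, R7 and R224. The means of R220 and R224 differ by 0.09 and 0.05 between 48 h and 24 h, and those of R74 and R63 by 0.68 and -1.05.

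Among the steps between neighbouring times, that from 24 h to 48 h had the smallest spread over sets. The SD of the log2 difference was 0.44 from 0 to 0.5 h, 0.36 from 0.5 to 2 h, 0.38 from 2 to 6 h, 0.27 from 6 to 24 h and 0.22 from 24 to 48 h. Sets that differed by more than 0.5 numbered 19, 37, 41, 17 and 8 in the same order. In limma with the block 46, 64, 64, 27 and 26 sets had an unadjusted p under 0.05, so the last 2 steps were close on this count. After adjustment limma with the block called 14 (percent called 6.25), 20 (8.93), 30 (13.4), 9 (4.02) and 0 sets. Without the block it called 3 (1.34), 1 (0.446), 11 (4.91), 1 (0.446) and 0 sets, so 2 of the other steps then lay within 1 call of the last. Neighbouring steps share the libraries of a time, the steps differ in length, and the difference between their counts was not tested.

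**Figure D5:**
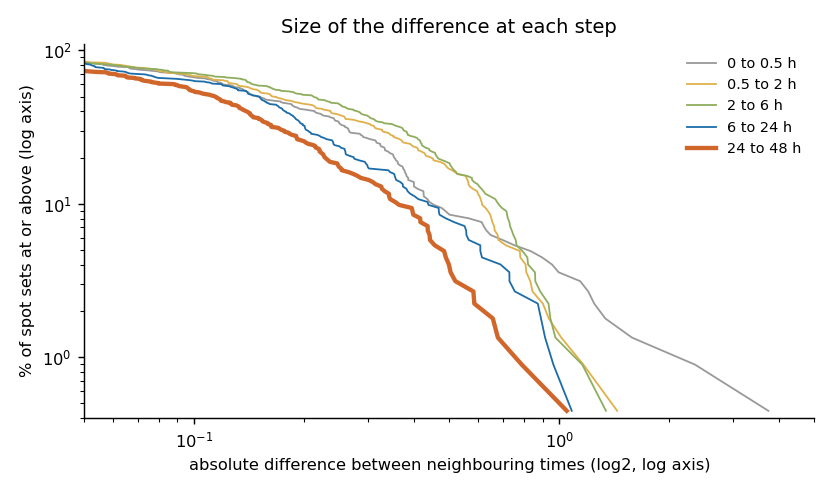
Share of all spot sets (vertical, %, log axis) whose absolute log2 difference between neighbouring times reached the value on the horizontal axis (log axis), 1 line per step. From 0.1 upward the line of the 24 to 48 h step lies below or left of the others.

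A list fitted on the libraries of 0, 0.5, 2 and 6 h alone was then followed, though its values were normalized over all arrays. It held the 29 sets (percent called 12.9) that limma with the block called at 0.5, 2 or 6 h against 0 h. Without the block that list held 7 sets (percent called 3.12), whose differences from 24 to 48 h had an SD of 0.29 and lay between -0.50 and 0.33. In the step from 24 to 48 h these 29 sets had a median difference of 0.01 and a range of -1.05 to 0.39, against a median of 0.01 over all sets tested, and 0 of them were called (percent called 0). The SD of their differences was 0.33, against 0.19 over the other 195 sets, and 9 of the 29 had an unadjusted p under 0.05, against 17 of the 195. The list was brighter, with a median log2 level of 10.95 against 7.98. Among sets of the upper brightness range alone the SD was 0.36 over 22 listed sets and 0.28 over 53 others, and 7 of the 22 (31.8%) had an unadjusted p under 0.05, against 13 of the 53 (24.5%). The gap in this share between listed and other sets was thus smaller at like brightness than over all sets, where the shares were 31.0% and 8.72%. The library pairs agreed in sign in 14 of the 29 listed sets (48.3%), against 111 of the other 195 (56.9%). In the upper brightness range they agreed in 11 of the 22 listed sets (50%), against 35 of the 53 others (66.0%).

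By code letter, the 14 sets whose code begins with N had a median difference of -0.02 (range -0.44 to 0.25) and the 210 sets that begin with R one of 0.01 (range -1.05 to 0.68). What the letters mean is not stated in the labels or files. No set of either letter was called.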

How the data were processed

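Small RNA of 8 arrays (4 at 48 h, 4 at 24 h) was compared within a series of 24 arrays. Per the file headers, the deposited scanner values are linear spot intensity from a fixed circle, neither crosstalk corrected nor background subtracted; the sources used here give no further step. In the authors' deposited table, values equal the scanner intensity less its background (largest difference 9e-06), and background was above 0 in 83 spots over the 24 arrays. Intensity plus 50 was log2 transformed, quantile normalized, and averaged over the 4 spots of a set and the 2 hybridizations of a library. limma 3.58.1 in R 4.3.3 fitted the 12 libraries with time as a factor and library number blocked (residual degrees of freedom: 5), two-sided, with Benjamini-Hochberg adjustment over all sets. statmod 1.5.0 served for random blocks. Rise and fall are written only for an adjusted p under 0.05.

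Pairing by number was set with the comparison. In a check on the data, library 1 minus library 2 correlated over sets between all 15 pairs of times (0.492 to 0.766; 0.759 between 48 h and 24 h). What same-numbered libraries share is not stated in the labels. Named sets were the 2 in each direction by the fixed rule (called sets first, then smallest p). R220, R7 and R224, the lists and the tests were chosen with earlier results of these data known. Code R105 occurs at 2 places and was kept as 2 sets. The file records give each array its own time, so no scan batch was fitted. The fit was tested on simulated data. Alternatives covered scaling, offset, spots, hybridizations, libraries, filters and moderation. Precision is limited by having 2 libraries a time.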

Additional observations from a re-analysis of the deposited data

Results flagged for a closer look

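In 20 groups of 4 arrays the highest and lowest array were tested for distance from the rest (3 array measures and 7 named sets at each of 2 times), and 2 groups stood out, where chance gives about 1 in 20. Both concern the first hybridization of library 1 at 24 h. Its median intensity was 407, where the 3 others had 194 to 226. The 5th percentile of its intensity was 135, against 34.0 to 45.6. In library 1 the first hybridization had the higher median intensity at every time, for example 566 against 276 at 48 h.

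These sets were chosen with their large changes against 0 h known, so the values below restate that choice. The change on day 2 differed from that on day 1, in a test of the difference itself, for 3 of the named sets: R220 by -4.18, R7 by -2.27 and R224 by 2.81 on the log2 scale (limma with the block). For R224 the call was lost without the block (adjusted p = 0.235).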

How the results depend on the processing

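The count of 0 sets between 48 h and 24 h was kept in 20 of 26 settings, among them no replicate block and each library of 48 h, 24 h or 0 h left out (0 to 0; 1 time then rests on a lone library assumed to vary like the rest). It was 6 (4 higher, 2 lower) with only the 24 h and 48 h libraries in the fit and 14 (5 and 9) with quantile normalization over their 8 arrays as well, fits with 1 residual degree of freedom that borrow their spread across sets, where dropping the replicate block gave 0 in the first. It was 4 (2 and 2, the named sets) over the brighter sets alone, 2 (1 and 1, R74 and R63) with all 24 hybridizations and both blocks, 2 (0 and 2, R63 and R111) with median scaling, and 2 (2 and 0, no named set) without normalization. The named differences kept their direction in all settings.

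Sets differing between day 2 and day 1 numbered 10, but 3 with no replicate block, 18 with median scaling, 6 with offset 200 or first hybridizations only, and 5 to 13 without 1 library (5 without library 2 of 24 h). The SD of the differences was 0.281 over the brighter sets alone and 0.216 to 0.295 without 1 library. In the main fit the SD was likewise larger in the brightest group (0.31) than in the middle (0.18) and dimmest (0.10) groups. Of the brighter sets 108 had an interval inside 1. Fewer sets were tested there, so this count cannot be set against the 220 of the main fit. The correlation between library pairs was 0.157 with first hybridizations only. Apart from the count of 108, the cause of these shifts was not tested.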
